A study of Homo sapiens with 9 samples.

Results

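The 10 genes described here encode chaperones and regulators of the endoplasmic reticulum (ER) in BEAS-2B cells, an immortalized human bronchial epithelial cell line. They are HSPA5, HSP90B1, CALR, PDIA4, CRELD2, DNAJB9, SDF2L1, HERPUD1, SEL1L and XBP1. They were chosen by name as members of the unfolded protein response (UPR), with earlier results of these data known, and are 10 of 63187 genes in the count table. Gene counts from poly-A RNA-seq were available for 9 libraries, 3 per condition, numbered 2, 3 and 4 as replicate and batch. Control cells received medium only. PG/VG cells were kept for 24 h in medium with 2% by volume of an aerosol condensate made from the carrier alone, a mixture of propylene glycol with vegetable glycerin. EC cells received, for the same time and at the same dilution, the condensate of an e-cigarette liquid with 18 mg/mL nicotine and Virginia tobacco flavor. EC and PG/VG therefore differ in both nicotine and flavor, whose parts cannot be told apart. The carrier ratio of the EC liquid is not given, so a difference in carrier cannot be told apart either. All groups come from 1 cell line grown in the same serum-containing medium. The study calls the libraries biological replicates, but what a batch number marks is not given in the sources used here. The p-values therefore measure only the spread between these libraries that condition and batch terms leave, estimated in part across genes.

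Secreted and membrane proteins fold in the ER with the help of chaperones and enzymes that form disulfide bonds. When unfolded proteins build up, the sensors ATF6, IRE1 and PERK start the UPR, which raises chaperone genes, sends misfolded proteins to ER-associated degradation (ERAD) and slows translation. HSPA5 (BiP), the main Hsp70 of the ER, holds the sensors inactive and is itself a classic UPR target, so it is widely used as a readout of ER stress.

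The elements through which ATF6 and XBP1 are known to act on UPR genes are shown first. The ER stress response element (ERSE) was searched on both strands as CCAAT, any 9 bases and CCACG, and ERSE-II as ATTGG, any 1 base and CCACG. The windows ran from 250 bases before to 50 bases after each RefSeq gene start (build GRCh38.p14), and all 10 genes matched. ERSE was present in 5 of the 10 genes, against 27 of all 35116 windows (0.0769%), and ERSE-II in SDF2L1 and HERPUD1, against 19 windows (0.0541%). Both elements were originally described from genes of this kind, so the counts are a description and not a test. The sequences are shown 5′ to 3′ on the strand of the gene, with the element in capitals, the genome position of the printed bases and the element's first base relative to the gene start. Elements on the opposite strand (the second of HSP90B1 and those of CALR, CRELD2 and SDF2L1) appear as the reverse complement.
HSPA5 ERSE, chr9:125241386-125241414, minus strand, motif at position −66: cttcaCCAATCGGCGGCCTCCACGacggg
HSP90B1 ERSE, chr12:103930211-103930239, plus strand, motif at position −194: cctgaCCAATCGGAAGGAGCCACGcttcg
HSP90B1 ERSE, chr12:103930316-103930344, plus strand, motif at position −89: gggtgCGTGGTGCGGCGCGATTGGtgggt
XBP1 ERSE, chr22:28800598-28800626, minus strand, motif at position −52: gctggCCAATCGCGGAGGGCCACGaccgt
CALR ERSE, chr19:12938379-12938407, plus strand, motif at position −225: ccacgCGTGGTCGACCATCATTGGtcggt
CRELD2 ERSE, chr22:49918549-49918577, plus strand, motif at position −80: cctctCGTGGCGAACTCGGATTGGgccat
SDF2L1 ERSE-II, chr22:21642109-21642129, plus strand, motif at position −188: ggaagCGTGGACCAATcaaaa
HERPUD1 ERSE-II, chr16:56932020-56932040, plus strand, motif at position −117: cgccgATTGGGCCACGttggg

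The 5 genes with an ERSE include HSPA5, HSP90B1 and CALR, the most abundant of the 10 per transcript length. DNAJB9, PDIA4 and SEL1L had neither element in their windows. The UPR element (UPRE) was in the window of none of the 10 genes and in 0.729% of all windows. The C/EBP-ATF response element (CARE), to which ATF4 and CHOP are known to bind, was in that of HERPUD1 and in 0.866% of all windows. No overlap between these elements was present in a window of the 10 genes. A match is a run of letters and not an occupied site, and a missing match says nothing on the factor.

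HSPA5 lies at chr9:125234853-125241382 (minus strand), HSP90B1 at chr12:103930107-103953931 (plus), XBP1 at chr22:28794555-28800597 (minus), DNAJB9 at chr7:108569867-108574850 (plus), SDF2L1 at chr22:21642302-21644299 (plus), HERPUD1 at chr16:56932142-56944864 (plus), PDIA4 at chr7:149003062-149028662 (minus), CALR at chr19:12938578-12944489 (plus), CRELD2 at chr22:49918167-49927540 (plus) and SEL1L at chr14:81471547-81533853 (minus), all on GRCh38 with GENCODE 44 bounds. All are protein-coding genes whose exons were counted. The HSP90B1 and CRELD2 elements lie inside the GENCODE bounds of their genes, while the other printed elements lie outside the gene bounds.

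Count totals ranged from 16168260 to 24917838 per library and TMM factors from 0.971 to 1.045. Of the 63187 genes, 16030 had at least 10 counts in at least 3 libraries and were tested, all 10 ER genes among them. The lowest count of an ER gene was 375, for SDF2L1. The 10 genes together took 0.309% to 0.397% of the counts of a library. Libraries of batch 4 stood apart from batches 2 and 3, with 40.6% of the tested genes differing (6505 genes, edgeR's quasi-likelihood test, adjusted p under 0.05). The bronchial keratins KRT8, KRT18 and KRT7 were abundant, whereas the defining epithelial genes CDH1 and EPCAM had at most 47 counts and the basal cell genes KRT5, KRT14 and TP63 at most 5. Mesenchymal FN1, VIM and CDH2 were abundant as well, whereas COL1A2 had at most 10 counts and DCN at most 2. The immune markers summed to at most 0.643 CPM (counts relative to the TMM-scaled library size).

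To compare the genes with each other, levels were set per length of the canonical transcript (RPKM, from CPM on TMM-scaled library sizes). In control cells CALR was highest at 444 ± 110 RPKM (SD, n = 3), followed by HSP90B1 at 295 ± 21.0 and HSPA5 at 211 ± 6.69. XBP1 (121 ± 49.5) and PDIA4 (106 ± 4.94) followed, with overlapping libraries. HERPUD1 (38.7 ± 5.39) and SDF2L1 (31.0 ± 3.27) overlapped too. CRELD2 (24.6 ± 3.32), SEL1L (17.2 ± 0.789) and DNAJB9 (10.4 ± 0.392) were lowest, each without overlap with the next. In bulk RNA, fewer cells of a kind and less RNA per cell cannot be told apart.

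**Figure D1:**
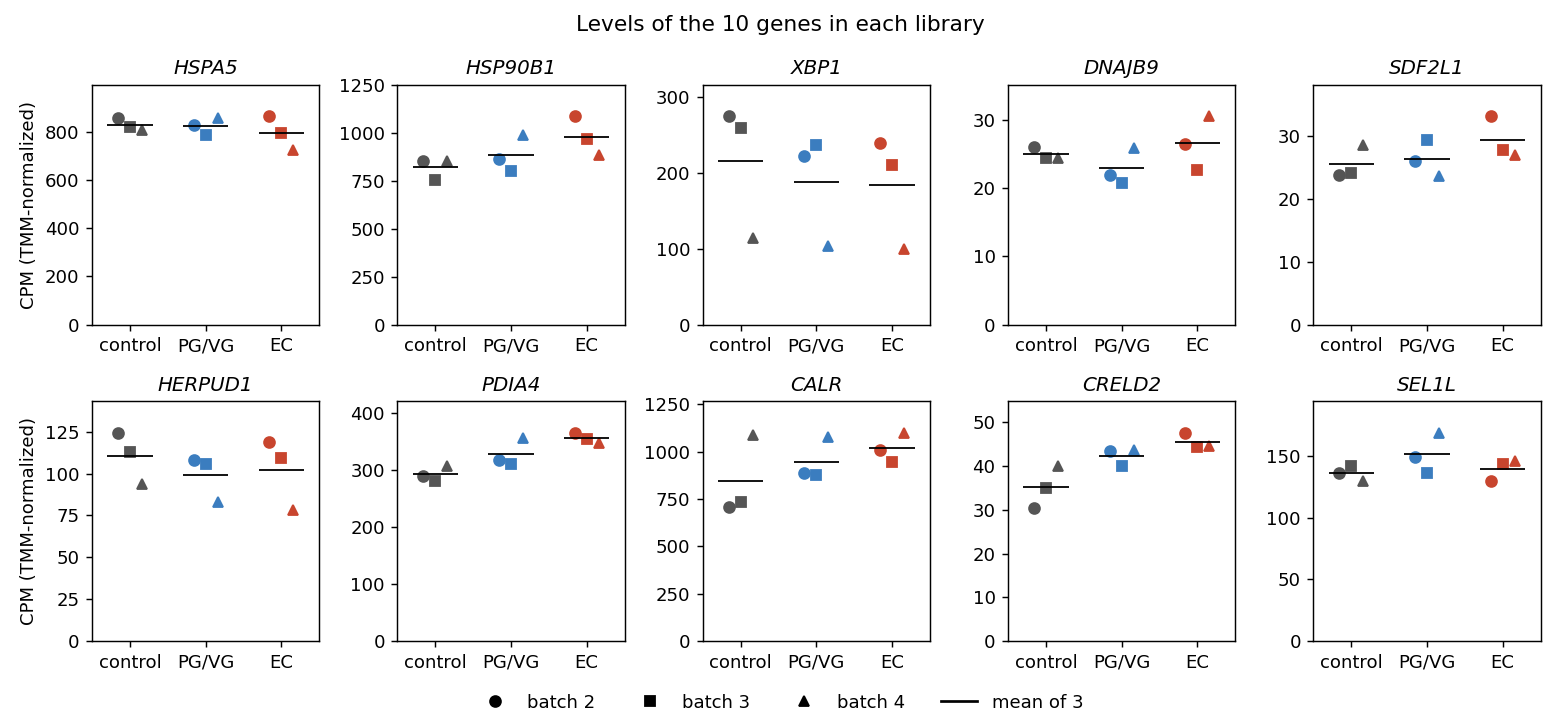
CPM of the 10 genes (y axis, TMM-normalized, from 0) in the 9 libraries by condition, with 1 symbol per batch and the mean of 3 libraries as a line. HSP90B1, PDIA4 and CRELD2 are higher in all 3 EC libraries than in all 3 controls, and XBP1 is lower in batch 4 in every condition.

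The comparison of EC with control asks what the full e-cigarette condensate changed in 24 h. CRELD2, PDIA4, CALR and HSP90B1 rose by 19.8% to 29.8%, XBP1 fell by 14.5%, and the other 5 genes, HSPA5 among them, did not pass the test. Thus 5 of 10 genes were called, where 13.5% of all tested genes were. In this comparison 8.07% of the tested genes rose and 5.38% fell. The median log2 fold change of the 10 genes was 0.14, ranging from −0.23 to 0.38, and that of all tested genes 0.0078.

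CRELD2, an ER-resident disulfide isomerase-like protein known to be induced by ER stress, had the largest fitted change of the 10. It had 30.4, 35.0 and 39.9 CPM in control batches 2, 3 and 4, and 47.6, 44.4 and 44.5 CPM in the EC libraries. Every EC library exceeded every control, and the EC libraries lay closer together than the controls. The log2 fold change was 0.38 (SE 0.089, edgeR adjusted p = 0.00693). Within batches 2, 3 and 4 the log2 difference was 0.64, 0.34 and 0.16. Without control replicate 2, its lowest library, the call was lost (log2 fold change 0.25, edgeR adjusted p = 0.119). ALG12 lies antisense to 3.25% of the CRELD2 exons.

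PDIA4 (ERp72), a disulfide isomerase that works with HSPA5, had 289, 280.2 and 307 CPM in control and 365, 354 and 347 CPM in EC. The lowest EC library was above the highest control. The log2 fold change was 0.29 (SE 0.068, edgeR adjusted p = 0.00691), with within-batch differences of 0.34, 0.34 and 0.18. The call was lost without control replicate 3 (edgeR adjusted p = 0.0784).

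HSP90B1 (GRP94), the Hsp90 of the ER, had 856, 754 and 853 CPM in control and 1089, 971 and 887 CPM in EC. All EC libraries were above all controls, but EC replicate 4 was close to control replicates 2 and 4. The log2 fold change was 0.26 (SE 0.079, edgeR adjusted p = 0.0314). Within batches it was 0.35, 0.37 and 0.06. The call was lost when any control, EC replicate 2 or EC replicate 3 was left out (edgeR adjusted p of 0.099, 0.177 and 0.0605 without control replicates 2, 3 and 4, and 0.159 and 0.185 without EC replicates 2 and 3). Other genes overlap 7.95% of the HSP90B1 exons, and the strand setting of the counting is not stated.

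CALR (calreticulin), the lectin chaperone that binds immature glycoproteins and calcium, had 709.8, 735 and 1085 CPM in control and 1007, 946 and 1099 CPM in EC. The groups overlapped, since the batch 4 control was at the level of the EC libraries. The log2 fold change was 0.29 (SE 0.078, edgeR adjusted p = 0.0138), and the within-batch differences were 0.50, 0.36 and 0.02. It lost the call without control replicates 2 or 3 or EC replicates 2 or 3 (edgeR adjusted p = 0.173, 0.126, 0.0831 and 0.0686). An antisense gene, ENSG00000267458, covers 9.64% of the CALR exons, and reads there would have been left out if the counting ignored strand.

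XBP1, the transcription factor that IRE1 activates by splicing its mRNA, went the other way. It had 275, 259 and 114 CPM in control and 239.9, 211 and 100.4 CPM in EC. The groups overlapped because batch 4 was low throughout. The log2 fold change was −0.23 (SE 0.069, edgeR adjusted p = 0.0326), and within batches it was −0.20, −0.30 and −0.18. The call was lost without control replicate 2 or 3 or EC replicate 3 or 4 (edgeR adjusted p = 0.14, 0.128, 0.18 and 0.0711). It was also lost with library size as the only scaling (edgeR adjusted p = 0.118). Gene counts do not separate spliced from unspliced XBP1.

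HSPA5 had 857, 819 and 806 CPM in control and 864, 796 and 725 CPM in EC, so the EC libraries spanned the controls. Its log2 fold change was −0.06 (95% interval −0.20 to 0.09, edgeR adjusted p = 0.646). HSPA5 and XBP1 carry an ERSE near their start, as HSP90B1, CALR and CRELD2 do. PDIA4 has neither ERSE nor ERSE-II in its window. The part of these elements in the changes was not tested. Whether HSPA5 changed less than the other chaperones was not tested.

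The HSPA5 co-chaperones gave wider intervals. SDF2L1 had 23.8, 24.2 and 28.6 CPM in control and 33.2, 27.8 and 27.0 CPM in EC, with a log2 fold change of 0.19 (95% interval −0.03 to 0.42). DNAJB9 (ERdj4), which is also known to restrain IRE1, had 26.0, 24.4 and 24.4 CPM in control and 26.5, 22.6 and 30.5 CPM in EC. Its log2 fold change was 0.08 (95% interval −0.12 to 0.28). The EC and control libraries overlapped for both genes, and the edgeR adjusted p was 0.25 for SDF2L1 and 0.646 for DNAJB9. SDF2L1 passed the threshold when control replicate 4 was left out (log2 fold change 0.35, edgeR adjusted p = 0.0417).

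The ERAD genes were not called either. HERPUD1, an ER membrane protein of the degradation complex and a known UPR and ATF4 target, had 124, 113 and 93.9 CPM in control and 119, 109 and 78.3 CPM in EC. Its log2 fold change was −0.12 (95% interval −0.27 to 0.03, edgeR adjusted p = 0.29), with within-batch differences of −0.06, −0.05 and −0.26. SEL1L, the adaptor of the HRD1 ubiquitin ligase, had 136, 142 and 129.6 CPM in control and 129.7, 143 and 146 CPM in EC, with a log2 fold change of 0.04 (95% interval −0.12 to 0.20, edgeR adjusted p = 0.813).

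The calls rested on the batch term. Without the batch in the model all 5 were lost (edgeR adjusted p from 0.241 for CRELD2 to 0.895 for XBP1), although the fold changes were close to those above. In batches 2 and 3 alone, the 4 rises were still called and XBP1 was not (log2 fold change −0.26, edgeR adjusted p = 0.0727). The groups of 3 of the 10 genes did not overlap in the direction of a rise, which held for 9.83% of the tested genes.

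**Figure D2:**
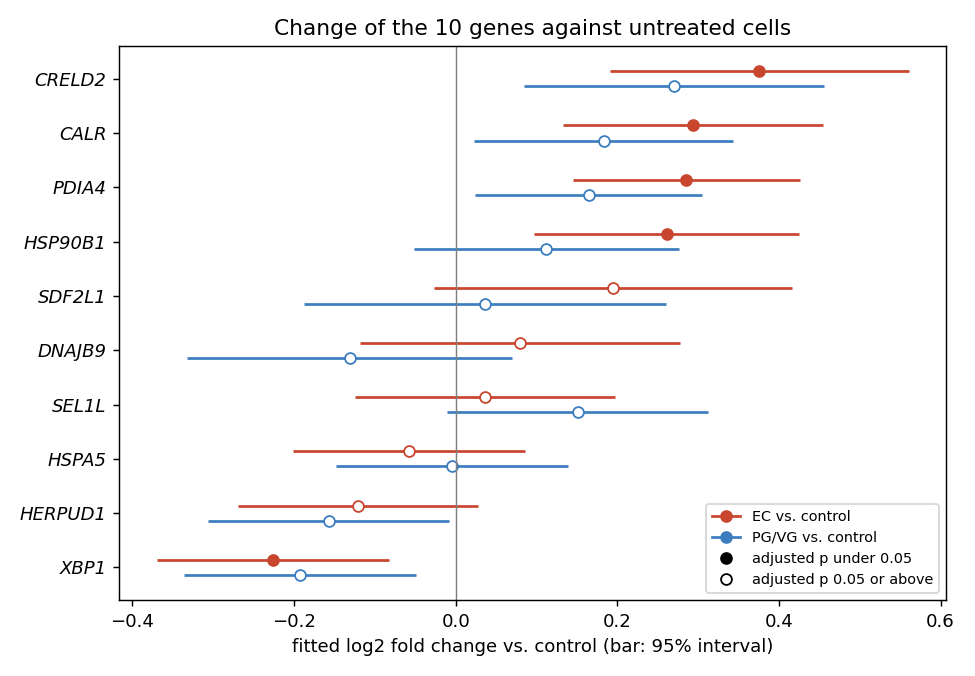
Fitted log2 fold changes of the 10 genes (x axis) against control for EC (red) and PG/VG (blue), with 95% intervals as bars and filled points where the adjusted p was under 0.05. Of the EC points 5 are filled, CRELD2, CALR, PDIA4 and HSP90B1 to the right of 0 and XBP1 to the left, and no PG/VG point is filled.

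The PG/VG vs. control comparison asks what the carrier condensate alone changed. It uses the same control libraries as EC vs. control, so the 2 sets of values are not independent. None of the 10 genes passed the test, where 4.54% of the tested genes did (2.63% rose and 1.9% fell). At an unadjusted p under 0.05 there were 5 of the 10 genes, and 3225 of the 16030 tested. DESeq2 with the batch in the model also called 0 of the 10. The median log2 fold change of the 10 genes was 0.07 and that of all tested genes 0.01.

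CRELD2 had 43.4, 39.9 and 43.7 CPM in PG/VG, and its lowest PG/VG library was just under the highest control. Its log2 fold change was 0.27 (SE 0.090, edgeR adjusted p = 0.0856) beside 0.38 in EC. PDIA4 had 318, 309.6 and 356 CPM in PG/VG, all above the controls, as were 7.79% of the tested genes, with a log2 fold change of 0.16 (edgeR adjusted p = 0.17) beside 0.29 in EC. CALR had 885, 877 and 1077 CPM, where the batch 4 library was at the level of its control, and a log2 fold change of 0.18 (edgeR adjusted p = 0.184) beside 0.29 in EC. Within batches 2, 3 and 4 the log2 difference from control was 0.51, 0.19 and 0.13 for CRELD2 and 0.14, 0.14 and 0.21 for PDIA4. For HSP90B1 it was 0.02, 0.09 and 0.22, and for CALR 0.32, 0.26 and −0.01. HSP90B1, with 867, 803 and 992 CPM, had a log2 fold change of 0.11 (95% interval −0.05 to 0.28, edgeR adjusted p = 0.46), and PG/VG replicate 4 was its highest library outside EC replicate 2. These 4 genes were picked for their rise in EC, and whether they rose in the order control, PG/VG, EC was not tested.

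XBP1 had 222, 237 and 103 CPM in PG/VG, with a log2 fold change of −0.19 (edgeR adjusted p = 0.116). Its within-batch differences were −0.30, −0.13 and −0.14. HERPUD1 had 108, 106 and 83.2 CPM (log2 fold change −0.16, edgeR adjusted p = 0.22). Its within-batch differences were −0.20, −0.09 and −0.17. SEL1L had 149, 136 and 169 CPM and a log2 fold change of 0.15 (edgeR adjusted p = 0.284), with PG/VG replicate 4 above every other library. HSPA5 had 827, 787 and 858 CPM in PG/VG, and its 95% interval ran from −0.15 to 0.14. DNAJB9 (22.0, 20.8 and 25.9 CPM) and SDF2L1 (26.1, 29.3 and 23.6 CPM) overlapped the controls, with log2 fold changes of −0.13 and 0.04.

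The absence of PG/VG calls depended on the method. The route the study's methods describe, ComBat-Seq adjustment followed by DESeq2, called 3 of the 10 genes, with rises of CRELD2 (adjusted p = 0.0309) and PDIA4 (adjusted p = 0.0429) and a fall of XBP1 (adjusted p = 0.0153), where it called 10.4% of all genes. With edgeR on the control and PG/VG libraries alone XBP1 was called (adjusted p = 0.0493), where 7.74% of all genes were. Without control replicate 4, CALR and CRELD2 were called (edgeR adjusted p = 0.0312 and 0.0426), where 2.74% of all genes were.

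**Figure D3:**
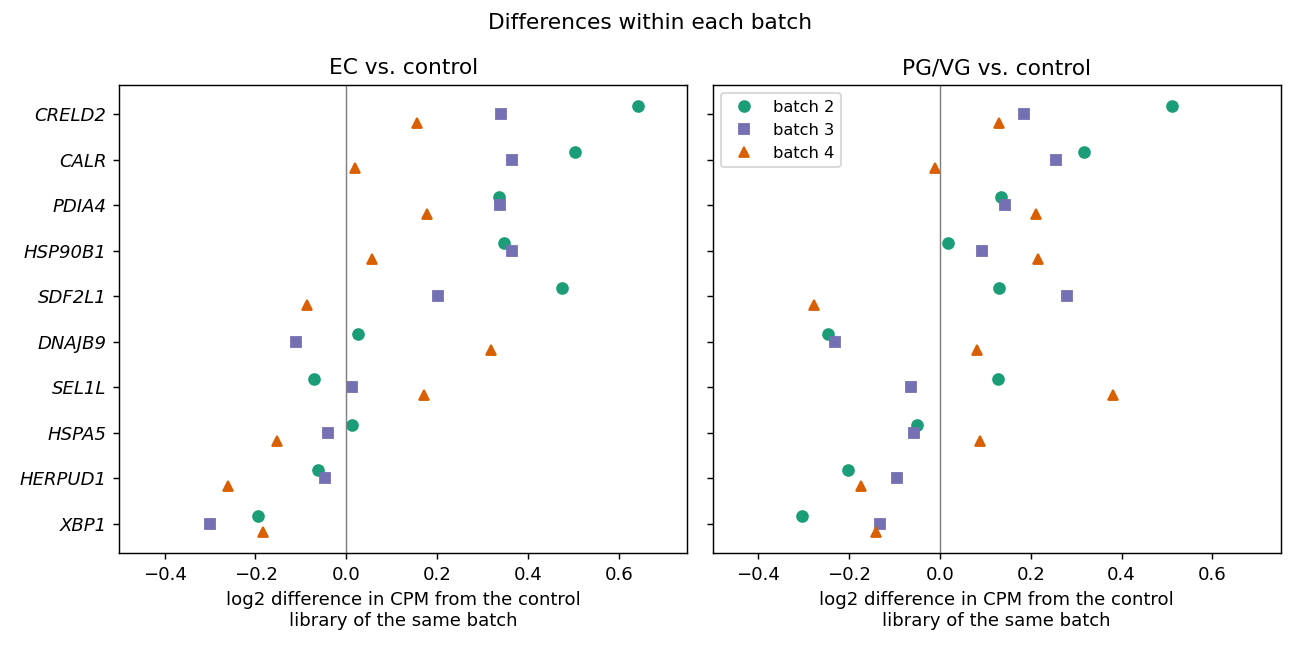
Log2 difference in CPM between each exposed library and the control library of its batch (x axis) for the 10 genes, with EC in the left panel, PG/VG in the right panel and 1 symbol per batch. In EC the batch 4 points of CALR (0.02) and HSP90B1 (0.06) sit close to 0, while XBP1 is left of 0 in all 3 batches of both panels.

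EC vs. PG/VG asks how cells with the full e-cigarette condensate differed from those with the carrier condensate. None of the 10 genes passed the test here, against 0.855% of the tested genes (0.555% higher and 0.299% lower), and none did under any of the 20 alternatives run. At an unadjusted p under 0.05 there was 1 of the 10 genes, DNAJB9, and 2064 of all tested genes. DNAJB9 had a log2 fold change of 0.21 (95% interval 0.02 to 0.41, edgeR adjusted p = 0.34), with within-batch differences of 0.27, 0.12 and 0.24. For the 4 genes that rose in EC vs. control, the log2 differences between EC and PG/VG were 0.15 for HSP90B1 (95% interval −0.02 to 0.31), 0.12 for PDIA4 (−0.02 to 0.26), 0.11 for CALR (−0.05 to 0.27) and 0.11 for CRELD2 (−0.07 to 0.29). The intervals include both no difference and one as large as the change from control to PG/VG. The EC libraries of CRELD2 were all above those of PG/VG, by less than 1 CPM at the closest, and 4.54% of the tested genes were higher in EC without overlap. XBP1 differed by −0.03 (95% interval −0.18 to 0.11).

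Changes among the genes can also be read within a library, where scaling between libraries has no part. HSPA5 was taken as the reference after its values were seen, so the ratios are a description. The HSP90B1 to HSPA5 count ratio was 0.9996, 0.921 and 1.06 in control, 1.05, 1.02 and 1.16 in PG/VG and 1.26, 1.22 and 1.22 in EC. All EC libraries exceeded all others, as did those of 3.39% of the tested genes. HSPA5 itself was lowest in EC replicate 4 (725 CPM), which raises every ratio of that library. The PDIA4 ratio was 0.338, 0.342 and 0.381 in control, 0.384, 0.393 and 0.415 in PG/VG and 0.422, 0.445 and 0.479 in EC. The groups did not overlap and had the order control, PG/VG, EC, which held for 0.68% of the tested genes. These genes had already been picked for their rise in EC. The CRELD2 ratio was 0.0355 to 0.0495 in control, 0.0507 to 0.0525 in PG/VG and 0.0550 to 0.0613 in EC, in the same order without overlap. For CALR the ratio was 0.829, 0.898 and 1.35 in control and 1.16, 1.19 and 1.51 in EC, and here the groups overlapped through batch 4.

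**Figure D4:**
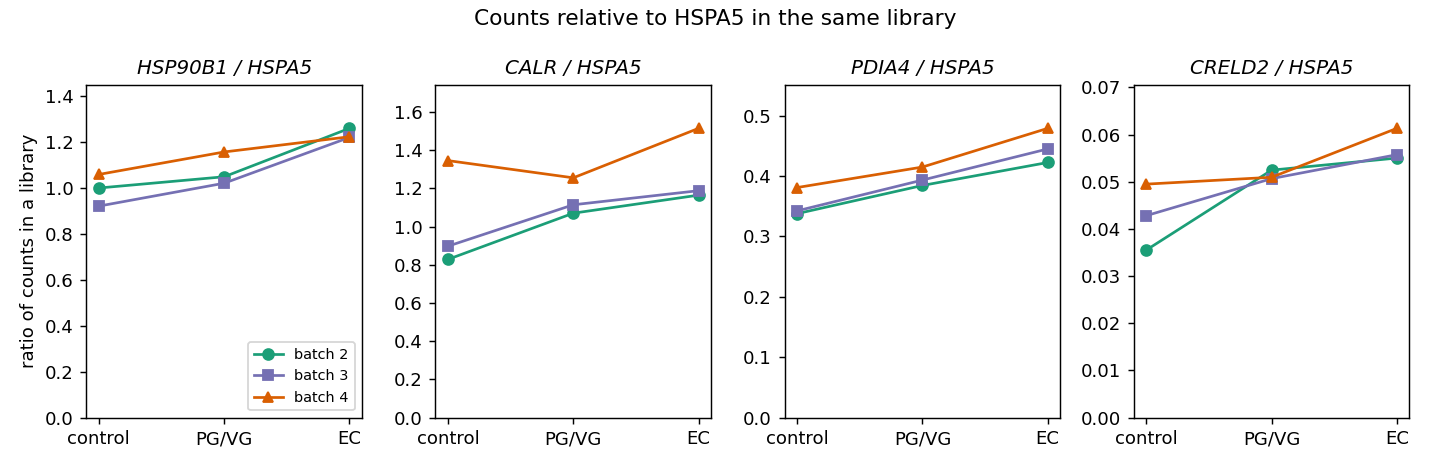
Ratio of the counts of HSP90B1, CALR, PDIA4 and CRELD2 to those of HSPA5 in the same library (y axis, from 0) by condition, with a line for each batch. Within each batch the EC ratio is above the control ratio for all 4 genes, which were picked for their rise in EC. In CALR the batch 4 line lies above those of batches 2 and 3.

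The batches differed more than the conditions for some of the genes. Batch 4 was compared with the mean of batches 2 and 3 in the same fit. XBP1 was lower in batch 4, with a mean of 106 CPM against 241 CPM and a log2 difference of −1.18 (SE 0.063, edgeR adjusted p = 9.41e-13). HERPUD1 was lower as well (85.1 against 113 CPM, log2 difference −0.41, edgeR adjusted p = 1.32e-05) and CALR higher (1087 against 860.0 CPM, log2 difference 0.35, edgeR adjusted p = 0.000159). The other 7 genes were not called, so 3 of 10 differed where 40.6% of the tested genes did (20.1% higher and 20.5% lower in batch 4). The batch difference of XBP1 was thus several times its change under EC. CALR, higher in batch 4, was also the gene with the smallest EC difference in batch 4 among the 4 that rose, and whether the EC effect differed between batches was not tested because a batch holds 1 library per condition.

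Across the 9 libraries, after removal of the batch means, the 4 genes that rose in EC varied together, and they were picked here for a shared rise. Pearson's r was 0.95 between CALR and CRELD2, 0.93 between HSP90B1 and PDIA4 and 0.87 between PDIA4 and CRELD2. It was 0.86 between PDIA4 and CALR, 0.75 between HSP90B1 and CALR and 0.72 between HSP90B1 and CRELD2. SDF2L1, which was not called, had r of 0.81 with CALR, 0.65 with CRELD2, 0.51 with PDIA4 and 0.47 with HSP90B1. XBP1 had r of −0.85 with CRELD2 and −0.80 with PDIA4, and 0.74 with HERPUD1. HSPA5 had r of −0.04 with PDIA4 and 0.26 with HSP90B1. These values include the differences between conditions and share depth and scaling, so they describe the pattern only. The tested genes outside the ER lists whose batch-centred log2 CPM was most like the mean of the 10 standardized genes over 9 libraries were F8A1 (r = 0.99), ABHD6 (0.98), ENSG00000286975 (0.98), ZCRB1 (0.98) and TPST1 (0.98), and F8A1 has near-identical copies between which reads cannot be divided. Of the 10 genes themselves, each of which is part of that mean, HSP90B1 was closest to it (r = 0.94), and XBP1 (−0.36) and SEL1L (−0.01) lay below 0.

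The wider ER machinery was described with 8 lists of other genes, 145 in all, of which 143 were tested. In EC vs. control 9 of them rose (6.29%) and 3 fell (2.1%), beside 8.07% and 5.38% of all tested genes. In PG/VG vs. control 2 rose (1.4%) and 3 fell (2.1%), beside 2.63% and 1.9%, and none was called between EC and PG/VG, beside 0.855%. The median log2 fold change of the 143 genes was 0.02 in EC and −0.01 in PG/VG.

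Of the 18 tested ER chaperones and co-chaperones other than the 10 genes, none was called in EC or PG/VG. In EC 16 of them lay above 0, with a median of 0.13, and in PG/VG 14 did, with a median of 0.07. Of all tested genes 51.5% lay above 0 in EC and 52.9% in PG/VG. Their log2 fold changes included 0.12 for CANX, the membrane-bound partner of calreticulin (SE 0.070, edgeR adjusted p = 0.284), 0.16 for DNAJC3 (edgeR adjusted p = 0.17) and 0.02 for HYOU1 (edgeR adjusted p = 0.893), the last a nucleotide exchange factor of HSPA5. These 3 were picked after their values were seen.

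Among the 18 protein disulfide isomerases and ER redox enzymes only TMX4, a membrane-bound thioredoxin-like protein, was called. It had 61.6 ± 6.23 CPM in control, 80.1 ± 2.13 in PG/VG and 93.6 ± 3.11 in EC (SD, n = 3), and rose in both EC (log2 fold change 0.61, SE 0.078, edgeR adjusted p = 2.31e-05) and PG/VG (0.38, edgeR adjusted p = 0.00618). P4HB, the major isomerase of the family, had a log2 fold change of 0.02 in EC (edgeR adjusted p = 0.914) and was also picked after its value was seen.

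Of 22 tested ERAD genes, 3 rose in EC and none fell. EDEM2, which takes part in mannose trimming of misfolded glycoproteins, rose by a log2 fold change of 0.40 (edgeR adjusted p = 0.00137). FOXRED2, a flavoprotein of ERAD, rose in EC and PG/VG (log2 fold changes 0.30 and 0.31, edgeR adjusted p = 0.00868 and 0.0169). MAN1B1, a mannosidase, rose in EC, close to the threshold (log2 fold change 0.22, edgeR adjusted p = 0.0494). The ligase SYVN1 (HRD1), the partner of SEL1L, had a log2 fold change of 0.16 (edgeR adjusted p = 0.172) and was picked after its value was seen.

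None of the 6 sensors and their proteases was called. The EC log2 fold changes were −0.09 for ATF6, 0.01 for ATF6B, 0.16 for EIF2AK3 (PERK), −0.01 for ERN1 (IRE1), 0.08 for MBTPS1 and 0.06 for MBTPS2, the last 2 being the proteases that release ATF6. Their edgeR adjusted p ran from 0.37 for EIF2AK3 to 0.986 for ERN1. ERN1 was spread widely in EC (24.5 ± 9.42 CPM, SD, n = 3) beside 23.7 ± 0.397 in control.

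Of the 13 genes of the PERK-ATF4-CHOP arm, 1 rose and 2 fell in EC, and 2 fell and none rose in PG/VG. In EC, TRIB3, a pseudokinase induced by ATF4 and CHOP, fell (log2 fold change −0.39, edgeR adjusted p = 0.0145), and CHAC1, a glutathione-degrading enzyme and ATF4 target, fell as well (log2 fold change −0.31, edgeR adjusted p = 0.0121). ATF5, a transcription factor, rose (log2 fold change 0.34, edgeR adjusted p = 0.0314). In PG/VG, DDIT3 (CHOP) fell from 37.7 ± 3.30 to 29.7 ± 2.08 CPM (SD, n = 3, log2 fold change −0.35, edgeR adjusted p = 0.0472). CEBPB, named after its value was seen as the other gene called there, fell too (log2 fold change −0.31, edgeR adjusted p = 0.0171). These genes were not called in the other comparison, nor between EC and PG/VG. In PG/VG the log2 fold change was −0.30 for TRIB3, −0.16 for CHAC1 and 0.29 for ATF5 (edgeR adjusted p = 0.0829, 0.28 and 0.115). In EC it was −0.25 for DDIT3 and −0.16 for CEBPB (edgeR adjusted p = 0.0985 and 0.16). The median log2 fold change of the 13 genes was −0.13 in both comparisons.

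In the remaining lists a few genes were called. Of 23 translocation genes, SEC61A1, the channel subunit, rose in EC (log2 fold change 0.21, edgeR adjusted p = 0.0294) and SSR3, a subunit of the translocon-associated complex, fell in EC (−0.24, edgeR adjusted p = 0.0276) and PG/VG (−0.37, edgeR adjusted p = 0.00382). Of 21 N-glycosylation genes only MLEC (malectin) was called (0.22 in EC, edgeR adjusted p = 0.0326). Of 22 ER to Golgi transport genes, SEC24D, a COPII coat subunit, and KDELR1, the receptor that returns KDEL proteins such as HSPA5 and HSP90B1 to the ER, rose in EC (log2 fold changes 0.33 and 0.26, edgeR adjusted p = 0.00691 and 0.0109). KDELR1 had 163 ± 11.1 CPM in control, 163 ± 3.44 in PG/VG and 195 ± 5.16 in EC (SD, n = 3), and its difference between EC and PG/VG had an edgeR adjusted p of 0.0619.

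**Figure D5:**
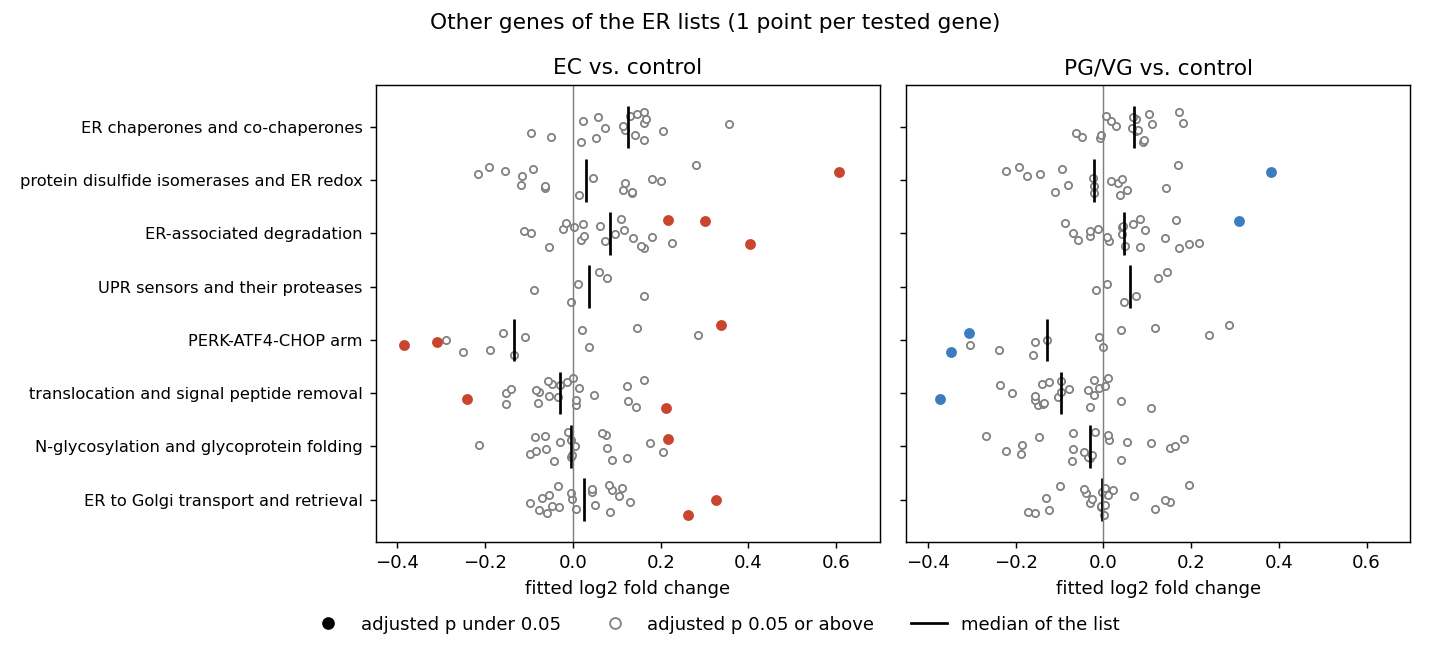
Fitted log2 fold changes (x axis) of the tested genes in 8 lists of other ER genes for EC (left) and PG/VG (right) against control, with filled points for an adjusted p under 0.05 and the median of each list as a line. In EC 9 filled points lie right of 0 and 3 left, and the list of chaperones has a median of 0.13 without a filled point.

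Markers of cell types moved with the conditions as well. Among 9 epithelial markers KRT8, KRT18 and KRT7 fell in EC (edgeR adjusted p = 0.0177, 0.000125 and 0.000202), and among 7 mesenchymal markers FN1 and CDH2 fell (0.000113 and 0.0168) and PDGFRB rose (0.0458). In PG/VG, VIM fell and COL1A1 and PDGFRB rose (edgeR adjusted p = 0.0441, 0.0394 and 0.0347), and no epithelial marker was called. The summed level of the epithelial markers was 1776 to 2844 CPM in control, 1721 to 2737 CPM in PG/VG and 1460 to 2287 CPM in EC (the lowest and highest library). That of the mesenchymal markers was 5047 to 7031, 4656 to 6747 and 3561 to 5471 CPM. KRT5 and KRT14 had at most 2 counts in any library. The endothelial markers summed to 4.24 to 7.77 CPM and the alveolar markers to 2.28 to 4.05 CPM over the 9 libraries. The part of the marker changes in the values of the 10 genes was not tested.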

How the data were processed

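The deposited table holds raw counts per gene that the authors made from poly-A RNA-seq reads with fastp, STAR on GRCh38.p12 and featureCounts (Subread 2.0.4, per the labels), on exons, leaving out multi-mapping and multi-overlapping reads. The strand setting is not given in the sources used here. All 9 columns were used as deposited, before any batch adjustment, and samples were grouped by title and batch label.

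The 16030 genes that reached 10 counts in 3 or more libraries were fitted in edgeR 4.0.16 (R 4.3.3) with TMM factors, terms for condition and batch, and robust quasi-likelihood tests, adjusted by Benjamini-Hochberg over all tested genes, with calls at an adjusted p under 0.05. CPM uses TMM-scaled library sizes, and SEs were taken from the fold change and the test statistic. The number that the labels call batch served as the replicate block, since the study's methods remove a batch effect before testing. Deviations from the condition means had r of 0.334 to 0.707 in 9 pairs of libraries with the same number. In 18 pairs with different numbers r was −0.539 to 0.426. The ranges overlapped, and deviations from a mean of 3 libraries sum to 0, so these values are a description. No pair of replicates was a duplicate (chi-square per gene of 3.88 to 54.5). Count totals of 16168260 to 24917838 limit the precision least for the abundant chaperones and most for DNAJB9 and SDF2L1 (380 and 375 counts at the lowest).

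Gene symbols and coordinates came from GENCODE 44 (62666 of 63187 identifiers matched). Promoter windows came from RefSeq.

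The 10 genes and the lists were chosen with earlier results of these data known. Genes named from a list were up to 4 called in EC or PG/VG with the largest changes, and all sensors. The steps were tested on simulated data for EC vs. control, where 162 of 200 genes with a log2 change of 1 were recovered, with 12 false calls. Changes as small as those of the 10 genes were not simulated. Alternatives were no batch term, RLE or library size scaling, 2 other count filters, DESeq2 1.42.0, ComBat-Seq (sva 3.50.0) with DESeq2, fits of 2 groups, a threshold of 0.01 and fits without 1 library. Batches 2 and 3 alone and counts thinned to the smallest library were added after seeing the data.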

Additional observations from a re-analysis of the deposited data

How the results depend on the processing

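Of the 10 genes, 4 rose and 1 fell in EC vs. control. Without the replicate block both counts were 0, and over all genes 16 rose and 0 fell in place of 1294 and 863. The replicate block pairs libraries by the batch number of the labels. At an adjusted p under 0.01 the counts were 2 and 0. The fall of XBP1 was also lost, a count of 0, with library size only, with genes of at least 1 count, in batches 2 and 3 alone and after thinning. In PG/VG vs. control, with 0 called, ComBat-Seq with DESeq2 gave 2 rises and 1 fall, and the 2 groups alone gave 1 fall. Leaving out 1 library in turn gave 1 to 4 rises and 0 to 1 falls in EC and 0 to 2 rises and 0 falls in PG/VG. EC vs. PG/VG gave 0 under all 20 alternatives. No called gene reversed in any of them. Among all called genes the rises were 60% in EC and 58% in PG/VG, against 79.3% and 72.1% with library size only, 51.1% and 48.3% with DESeq2 and 49.1% and 45.7% with ComBat-Seq. Without 1 library the calls over all genes ranged from 700 to 1290 up and 462 to 926 down in EC, 130 to 526 up and 62 to 558 down in PG/VG, and 28 to 129 up and 4 to 80 down in EC vs. PG/VG. In the 8 other lists, EC vs. control had 9 rises and 3 falls and PG/VG vs. control 2 and 3. These became 0 in all 4 without the replicate block, 4, 0, 1 and 1 at an adjusted p under 0.01, and with ComBat-Seq 9 falls in EC and 6 rises and 11 falls in PG/VG. Library size only gave 15 rises in EC, batches 2 and 3 alone 5 EC rises and 0 PG/VG rises, and the 2 groups alone 8 PG/VG falls. EC vs. PG/VG, with 0, had 1 rise with library size only, 1 with DESeq2 and 3 with ComBat-Seq. Without 1 library the lists gave 2 to 9 rises and 1 to 4 falls in EC, with 2 rises without control replicate 3, and 0 to 4 rises and 0 to 6 falls in PG/VG, with 0 of both without PG/VG replicate 2. EC vs. PG/VG had 1 rise without control replicate 4. The cause of these differences was not tested. The levels of DNAJB9 and SDF2L1 rest on the fewest counts.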
